A study of Chlamydomonas reinhardtii with 12 samples.

Results

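The comparison is between 2 strains of the unicellular green alga Chlamydomonas reinhardtii that carry different rescues of the same mutant, crr1. The strain crr1dCys was rescued with a form of CRR1 known to lack the cysteine-rich end of the protein, and crr1:CRR1 with the full-length protein. Each was sampled in light with oxygen and after 0.5 h and 6 h in sealed, dark bottles, which makes 6 of the 12 samples of the study. In the series of columns named TS1, these 6 samples hold 6 of the 20 deposited columns, 1 for each strain and stage. Levels in light and the responses at 0.5 h and 6 h were set against each other by size, since 1 column a side allows no test. The remaining samples are the mutant crr1 without rescue and the wild type CC-124, and their values stand beside those of the 2 rescued strains where a result turns on them.

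CRR1 is a transcription factor of the plant family with a squamosa promoter binding domain, named for its part in the alga's response to copper. It switches on genes of the response to copper deficiency, and some of the same genes also respond to lack of oxygen. The cysteine-rich end resembles metallothioneins, small proteins that bind metal ions. In sealed, dark bottles respiration uses up the oxygen and the alga turns to fermentation, so light and oxygen were withdrawn together here. All cultures grew in the acetate-containing medium TAP in light. The copper supply, the promoters of the introduced genes, their places of insertion and the number of clones behind each rescued strain are not given in any source used here. A difference between the strains can therefore not be told apart from one between 2 transformed lines.

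The values were read as RPKM, reads scaled to a length for each gene model and to the depth of the column. The table names 17301 gene models by identifier alone. CRR1 itself could not be matched to a model, so its own level in the 4 strains is not reported and does not check the labels. A level is given as RPKM or as log2(RPKM + 1), and a response is the log2 level at 0.5 h or 6 h minus the log2 level in light of the same strain and series. The difference printed is always crr1dCys minus crr1:CRR1 in log2 units. A model was counted past the size at 2 log2 units or more, if it reached a log2 level of 2, which is 3 RPKM, in a column of the comparison. The 6 columns rested on 12010897 to 15850358 reads, as worked out from the step size of low values.

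Both strains have a further column for each stage, TS2 in crr1dCys and TS4 in crr1:CRR1. These show how far columns of 1 strain lie apart, and they share no column with the TS1 comparison. They belong to the same samples as the TS1 columns and are not separate replicates. Between TS2 and TS4 the strain and the series change together, so a strain difference cannot be told apart from a series difference there. The 6 h column of crr1:CRR1 in TS4 stood apart. Its response differed from that of TS1 by the same size in 858 of 12470 models, 6.88%, against 20 of 11577, 0.173%, between the TS1 and TS2 columns of crr1dCys. Results at 6 h are therefore given with both crr1:CRR1 columns. What sets that column apart was not tested.

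In light, the largest differences were models with high levels in crr1dCys and low levels or next to no reads in crr1:CRR1. By size, 31 of 10972 models were higher in crr1dCys, 0.283%, and 24 were lower, 0.219%. In either direction, 55 models differed between the strains. Columns of the same strain differed by as much, in either direction, in 25 of 10842 models in crr1dCys, 0.231%, and in 32 of 10864 in crr1:CRR1, 0.295%. With at least 50 reads in a column of the comparison, a limit added after seeing the data, 28 models were higher and 14 lower. Between columns of the same strain, 15 models in crr1dCys and 20 in crr1:CRR1 then differed in either direction. The median difference over all models counted was 0.04 log2 units.

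**Figure D1:**
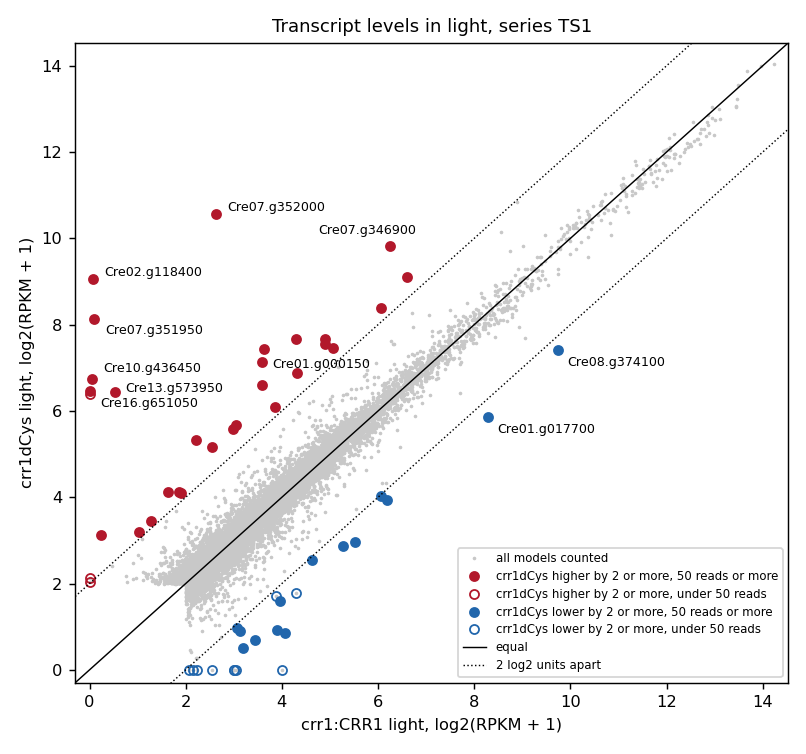
Level in light of every gene model counted, as log2(RPKM + 1), in crr1dCys (vertical axis) against crr1:CRR1 (horizontal axis), 1 column each of series TS1. Filled points are the 28 models higher and 14 lower in crr1dCys by 2 log2 units or more with at least 50 reads, and open points those with fewer reads. Cre02.g118400, Cre07.g351950 and Cre10.g436450 lie next to 0 on the crr1:CRR1 axis, and Cre07.g352000 at 2.64.

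The largest difference in light, 8.98 log2 units, belonged to Cre02.g118400.t1.2. It had 531 (TS1) and 423 (TS2) RPKM in crr1dCys, against 0.0540 (TS1) and 0.128 (TS4) RPKM in crr1:CRR1. The TS1 values rest on 14935 reads in crr1dCys and 2 in crr1:CRR1. The mutant crr1 had 0.157 and 0.113 RPKM and CC-124 had 0.0959 RPKM, so the model was high in the crr1dCys columns alone. It stayed there in the dark, with 278 and 206 RPKM at 0.5 h and 581 and 599 RPKM at 6 h in crr1dCys. The highest value of any other strain at any stage was 0.861 RPKM, in crr1:CRR1 TS4 at 6 h.

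Next in order came Cre07.g351950.t1.2 and Cre07.g352000.t1.1, at 8.02 and 7.92 log2 units. These lie next to each other in the RefSeq assembly Chlamydomonas_reinhardtii_v5.5. Cre07.g351950.t1.2 had 278 (TS1) and 180.2 (TS2) RPKM in crr1dCys, and 0.0730 (TS1) and 0.221 (TS4) RPKM in crr1:CRR1. Cre07.g352000.t1.1 had 1510.3 and 957 RPKM in crr1dCys, against 5.23 and 4.13 RPKM in crr1:CRR1. In crr1 the neighbour pair stood at 0.0568 and 5.85 RPKM in TS1, and in CC-124 at 0.242 and 4.53 RPKM. Both models thus had the same low level in the 3 other strains, and 1 of them was never near 0 there. At 6 h in TS1 crr1dCys reached 410.0 and 2488 RPKM, against 0.0161 and 5.73 RPKM in crr1:CRR1.

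Cre10.g436450.t1.1 differed by 6.68 log2 units. It stood at 105 and 72.8 RPKM in crr1dCys and at 0.0349 and 0.0331 RPKM in crr1:CRR1, in TS1 and the other series. Cre13.g573950.t1.2 differed by 5.91 log2 units, with 85.2 and 29.7 RPKM in crr1dCys and 0.434 and 0.334 RPKM in crr1:CRR1. Cre01.g000150.t1.1 was expressed in all strains, at 139 and 132 RPKM in crr1dCys and 11.0 and 11.2 RPKM in crr1:CRR1. It had 4.34 RPKM in crr1 TS1 and 7.78 RPKM in CC-124, and its difference was 3.55 log2 units. In these 3 models both crr1dCys columns lay above every column of the other strains, and columns of 1 strain lay far closer together than the strains.

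Together with Cre07.g355150.t1.2, at 96.3 and 93.7 RPKM in crr1dCys and 11.1 and 18.3 RPKM in crr1:CRR1, this made 7 models. In all 7, both crr1dCys columns in light were at least 2 log2 units above the TS1 and TS4 columns of crr1:CRR1, crr1 in TS1 and CC-124. Their median log2 levels were 7.13 in TS1 and 7.06 in TS2 for crr1dCys, then 0.31 for crr1 and 1.02 for CC-124, with 0.52 in TS1 and 0.42 in TS4 for crr1:CRR1. The 7 were picked out after their values were seen, so this is a description. All 7 were also among the 9 models that were higher by 2 log2 units at all 3 stages in TS1.

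A different pattern was seen in Cre06.g309000.t1.1, where the crr1 mutant shared the high level. It had 171 (TS1) and 243 (TS2) RPKM in crr1dCys, against 11.4 (TS1) and 71.0 (TS4) RPKM in crr1:CRR1. Its level was 137 and 82.7 RPKM in crr1, and 0.988 RPKM in CC-124. Cre02.g097800.t1.2 was alike, with 203 and 255 RPKM in crr1dCys and 18.7 and 62.3 RPKM in crr1:CRR1. Here crr1 had 141 and 80.3 RPKM and CC-124 had 3.70 RPKM. In both models the TS4 column of crr1:CRR1 lay well above its TS1 column, and the strain difference was 3.80 and 3.38 log2 units in TS1 but 1.76 and 2.01 between TS2 and TS4.

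Of the 28 models higher in crr1dCys with at least 50 reads, crr1 in TS1 was at least 1 log2 unit above crr1:CRR1 in 12 and not in 16. For the 12, median log2 levels were 5.63 in TS1 and 6.15 in TS2 for crr1dCys, 5.49 for crr1, 1.29 for CC-124, and 3.01 in TS1 and 4.32 in TS4 for crr1:CRR1. Among them were Cre04.g223300.t1.1, Cre19.g753750.t1.1 and, picked after their values were seen, Cre12.g555700.t1.2 and the neighbours Cre05.g248450.t1.1 and Cre05.g248400.t1.1. For the 16, the medians were 6.93 and 6.64 for crr1dCys, 2.30 for crr1, 2.22 for CC-124, and 2.60 and 2.54 for crr1:CRR1. The split uses the crr1:CRR1 values of TS1, which also chose the 28 models, and so describes them only.

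Columns of crr1dCys disagreed for some of the higher models. Cre16.g651050.t1.1 had 86.9 (TS1) and 2.94 (TS2) RPKM in crr1dCys. It was listed at 0 in TS1 and at 0.248 RPKM in TS4 in crr1:CRR1, so a difference of 6.46 log2 units in TS1 stood beside 1.66 between TS2 and TS4. Cre07.g346900.t1.2 had 898 and 196 RPKM in crr1dCys and 75.3 and 97.8 RPKM in crr1:CRR1, and its difference of 3.56 log2 units in TS1 was 1.0 in the other columns. Both rescued strains were above crr1, at 10.1 and 4.00 RPKM, and above CC-124, at 2.94 RPKM. One of the 10 largest differences, 6.4 log2 units in Cre22.g764964.t1.1, rests on 2 reads in crr1dCys and 0 in crr1:CRR1.

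**Figure D2:**
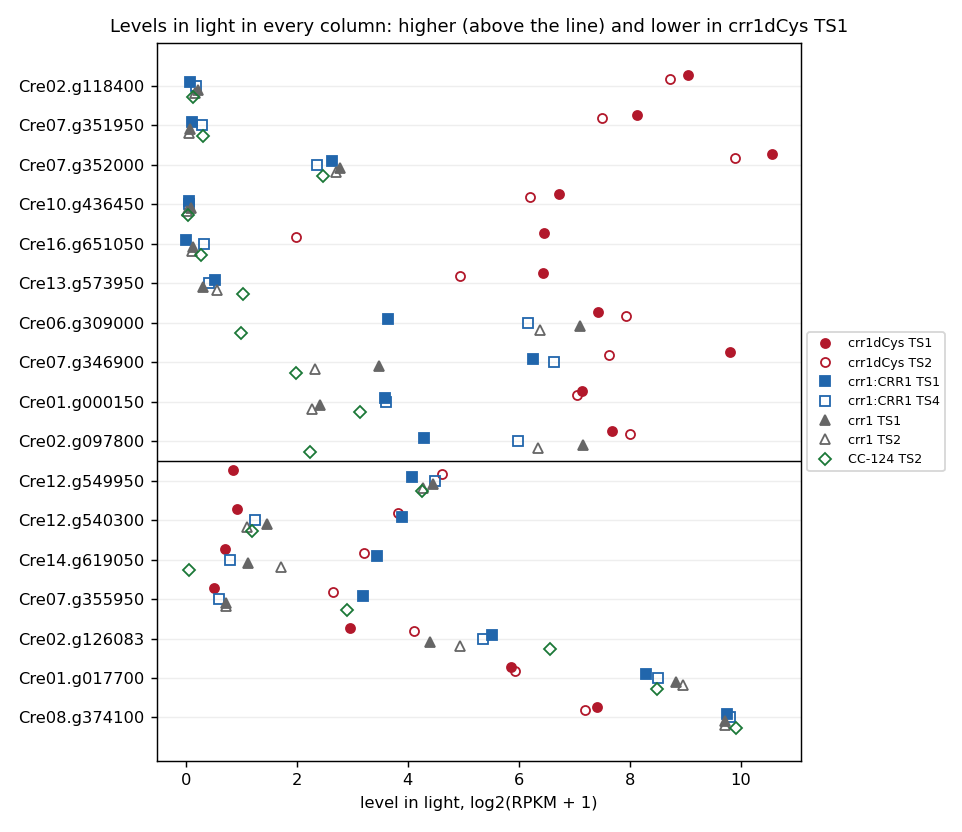
Level in light, as log2(RPKM + 1), of 10 models higher (above the line) and 7 models lower in crr1dCys TS1, with 1 point for each column of each strain. For Cre02.g118400 down to Cre10.g436450 both crr1dCys columns stand clear of all other columns, while in Cre12.g540300 and Cre14.g619050 the TS2 column of crr1dCys lies beside the TS1 column of crr1:CRR1.

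All 31 models higher in crr1dCys in TS1 were also higher in TS2 of crr1dCys than in TS4 of crr1:CRR1, 100.0%, against 51.5% of all models counted. The difference was at least 1 log2 unit there in 24 of them, 77.4%, against 2.40% of all models. Their median difference was 1.76 log2 units in those columns. The models lower in crr1dCys did not repeat in this way. Of the 24, 8 were lower in TS2 than in TS4, 33.3%, against 48.4% of all models, and 13 were higher.

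Some of the lower models differed in both pairs of columns and some did not. Cre01.g017700.t1.2 had 57.1 (TS1) and 60.2 (TS2) RPKM in crr1dCys, against 313 (TS1) and 364 (TS4) RPKM in crr1:CRR1. Cre08.g374100.t1.2 had 169 and 146 RPKM in crr1dCys, against 860 and 897 RPKM in crr1:CRR1. The differences were -2.43 and -2.34 log2 units in TS1, and -2.58 and -2.61 between TS2 and TS4. In both models the other strains lay with crr1:CRR1, at 456 and 836 RPKM in crr1 TS1 and 357 and 967 RPKM in CC-124.

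These models stayed lower in crr1dCys in the dark. At 0.5 h Cre01.g017700.t1.2 had 46.6 and 65.1 RPKM in crr1dCys, and 447 (TS1) and 1610.5 (TS4) RPKM in crr1:CRR1. Cre08.g374100.t1.2 had 122 and 129 RPKM in crr1dCys at that time, and 997 and 2054 RPKM in crr1:CRR1. Their highest values in the study were in crr1 at 0.5 h, with 3137 and 3962 RPKM. Cre01.g062700.t1.1, with an inferred length of 98 bases, had the same order. It had 15.3 and 10.6 RPKM in light in crr1dCys and 66.0 and 62.6 RPKM in crr1:CRR1. Cre02.g126083.t1.1 was lower in both crr1dCys columns, at 6.74 and 16.3 RPKM, than in both crr1:CRR1 columns, at 44.6 and 39.7 RPKM. Apart from Cre02.g126083.t1.1, these models were picked after their values were seen.

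Other lower models turned round in the other columns. Cre12.g540300.t1.1 had 0.894 (TS1) and 13.2 (TS2) RPKM in crr1dCys, against 13.8 (TS1) and 1.38 (TS4) RPKM in crr1:CRR1. Its difference was -2.97 log2 units in TS1 and 2.58 between TS2 and TS4. Cre14.g619050.t1.1 gave -2.75 and 2.42 log2 units, and Cre07.g355950.t1.1 gave -2.68 and 2.06. In light Cre12.g549950.t1.1 was low in crr1dCys TS1 alone, at 0.798 RPKM, against 23.6 RPKM in crr1dCys TS2 and 15.8 and 21.4 RPKM in crr1:CRR1. It stayed low in crr1dCys TS1 in the dark, at 1.51 RPKM at 0.5 h and 1.75 RPKM at 6 h. The TS2 columns of crr1dCys had 20.1 and 22.1 RPKM at those times. Cre17.g708650.t1.1, with the largest difference of -3.99 log2 units, had 0 reads in crr1dCys and 4 in crr1:CRR1, and 10 of the 24 lower models had under 50 reads.

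The turn was also seen through all stages. With at least 50 reads, 54 models were lower in crr1dCys by 1 log2 unit or more at all 3 stages of TS1. Of these, 12 were higher by as much at all stages between TS2 and TS4, and 5 were lower there too. Of 28 models higher at all stages in TS1, 14 were higher at all stages between TS2 and TS4 and 0 were lower. Among all models with at least 50 reads, 123 were higher by as much at all stages between TS2 and TS4 and 18 were lower. Among models that differed by as much at all stages, those columns thus leaned towards higher values in crr1dCys. Over all models counted, the median difference in level between TS2 and TS4 was 0.01 log2 units in light. It was 0.03 at 0.5 h and -0.16 at 6 h. Within crr1dCys, 42 models differed by 1 log2 unit or more in 1 direction at all stages between TS1 and TS2, and within crr1:CRR1 61 did so between TS1 and TS4. These differences thus held through the stages of 1 strain in 1 series, but not between the series of that strain. No source used here says what the series numbers stand for.

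At 0.5 h in the dark without oxygen, the responses of the rescued strains differed by size in 29 models, most of them with few reads. Of these, 13 of 11994 models had a higher response in crr1dCys, 0.108%, and 16 a lower one, 0.133%. Between columns of the same strain it was, in either direction, 24 of 11811 models in crr1dCys, 0.203%, and 17 of 11877 in crr1:CRR1, 0.143%. With at least 50 reads the strains differed in 9 models, and columns of 1 strain in 1 and 3. None of the 13 higher models reached 50 reads in a column, and 12 of them had an inferred length under 100 bases, where single reads are worth many RPKM. The largest, Cre02.g102200.t1.1 at 4.77 log2 units, rests on 1 read in crr1dCys at 0.5 h. Of the lower ones, 7 were also under 50 reads, among them Cre13.g572250.t1.2 with the largest difference of -4.05 log2 units. All 9 lower models with enough reads kept their sign between TS2 and TS4, against 46.4% of all models counted, but only 3 of the 9 differed there by 1 log2 unit or more.

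Of the 16 models with a lower response, 4 were also among those higher in light in crr1dCys, 25.0%, against 0.283% of all models counted in light. The light level and the response both use the light columns, with opposite sign. Cre04.g223300.t1.1 had the largest difference, -2.87 log2 units. It went to 5.22 RPKM at 0.5 h, against 187 RPKM in light, in crr1dCys TS1, and to 6.15 RPKM at 0.5 h, against 28.6 RPKM in light, in crr1:CRR1 TS1. The dark levels of the strains were therefore close, and the light levels apart. Cre19.g753750.t1.1 stood at 0.356 RPKM at 0.5 h and 7.78 RPKM in light in crr1dCys, and at 0.245 and 0.185 RPKM in crr1:CRR1, a difference of -2.77 log2 units. The crr1 mutant had responses of -4.28 and -2.06 log2 units in these models, nearer to those of crr1dCys, at -4.92 and -2.70, than to those of crr1:CRR1, at -2.05 and 0.07. In the TS4 columns the responses of crr1:CRR1 were -3.96 and -1.22 log2 units. For Cre04.g223300.t1.1 the TS4 response was thus nearer to that of crr1 than the response of crr1dCys was.

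The neighbours Cre07.g321750.t1.1 and Cre07.g321800.t1.1 differed through a higher level in crr1:CRR1 at 0.5 h. Cre07.g321750.t1.1 had 2.47 (TS1) and 2.89 (TS2) RPKM in crr1dCys at 0.5 h, against 13.6 (TS1) and 9.08 (TS4) RPKM in crr1:CRR1. Cre07.g321800.t1.1 had 2.06 and 2.96 RPKM in crr1dCys, against 20.8 and 14.4 RPKM in crr1:CRR1. CC-124 reached 7.70 and 9.28 RPKM in the pair, and crr1 3.17 and 3.25 RPKM. At 0.5 h both strains with full-length CRR1 thus lay above both others. Their responses differed by -2.75 and -2.66 log2 units in TS1 but by -0.50 and -0.06 between TS2 and TS4, where crr1:CRR1 already had 6.39 and 9.32 RPKM in light.

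At 6 h the responses differed more. By size, 26 of 11902 models had a higher response in crr1dCys, 0.218%, and 48 a lower one, 0.403%. With at least 50 reads these were 11 and 39 models. In either direction, 5 models differed between the columns of crr1dCys and 805 between those of crr1:CRR1. The median difference over all models was -0.11 log2 units. Quantile normalization of the 6 columns moved it by 0.107, to -0.005, and 40 models then had a higher and 44 a lower response. Median of ratios scaling gave 30 and 43. Among the 39, crr1 had a response nearer to that of crr1dCys in 34, 87.2%, against 50% of all models counted, and CC-124 in 2, 5.13%, against 41.3%. The rescued strains' TS1 columns enter both the choice of the 39 and this measure, so the shares describe these models only.

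**Figure D3:**
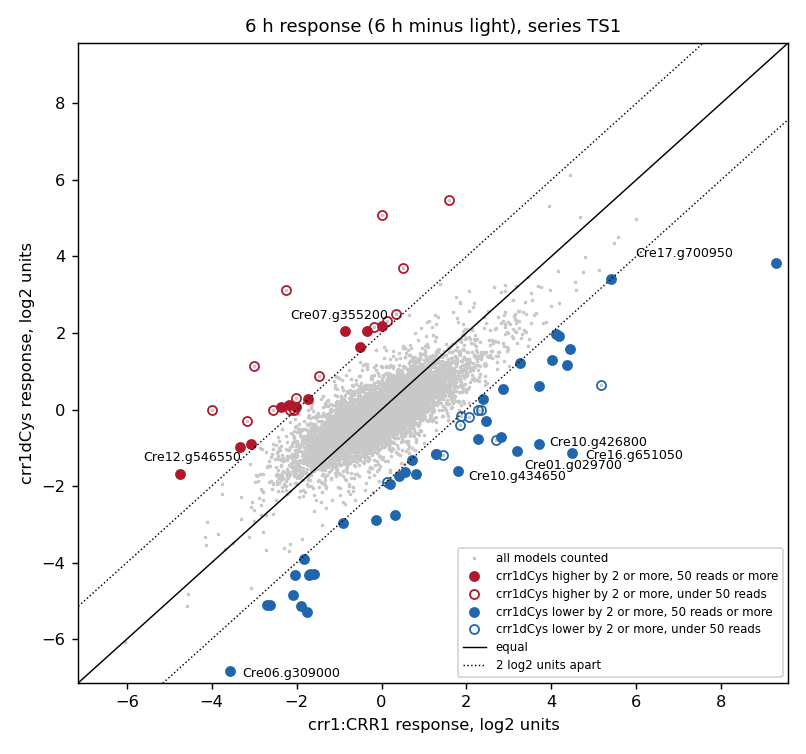
Response at 6 h (log2 level at 6 h minus log2 level in light) of every gene model counted, in crr1dCys (vertical axis) against crr1:CRR1 (horizontal axis), 1 column for each strain and stage of series TS1. Of the filled points below the lower dotted line, 20 lie at 1 or more on the crr1:CRR1 axis and 11 at -1 or less, with Cre17.g700950 at 3.84 in crr1dCys and 9.29 in crr1:CRR1.

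The 39 models with a lower response divide by what crr1:CRR1 did in TS1. In 20 its response was 1 log2 unit or more, in 11 it was -1 or less, and 8 lay between. For the 20, the median response was 0.41 log2 units in TS1 and 0.65 in TS2 for crr1dCys, 0.64 for crr1, 3.75 for CC-124, and 3.48 in TS1 for crr1:CRR1. CC-124, whose columns took no part in the choice, had a response of at least 1 in 17 of the 20, 85.0%, against 53.3% of all models with such a response in crr1:CRR1 TS1. Those had a median of 1.43 log2 units in crr1:CRR1 TS1, lower than that of the 20. In the TS4 column of crr1:CRR1 the median was 0.40, and 5 of the 20 had a response of at least 1, 25.0%, against 50.5% of all such models. At 6 h, 18 of the 20 were also lower in level in crr1dCys by 1 log2 unit or more, 90.0%, against 19.6% of all such models. The TS1 columns at 6 h enter both this level and the choice of the 20. The level is therefore not independent of the response and describes these models only.

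Cre17.g700950.t1.1 had the highest 6 h response of crr1:CRR1 among these. It had 40.7 (TS1) and 7.03 (TS2) RPKM in crr1dCys at 6 h, against 1609 (TS1) and 62.4 (TS4) RPKM in crr1:CRR1. In light it had 1.92 and 0.523 RPKM in crr1dCys and 1.58 and 1.60 RPKM in crr1:CRR1, so the strains lay close in TS1. Both crr1dCys columns at 6 h lay below both crr1:CRR1 columns. They also lay above crr1, which was listed at 0 in TS1 and at 0.128 RPKM in TS2, and CC-124 had 10497 RPKM. The difference in response was -5.45 log2 units in TS1 and -2.21 between TS2 and TS4.

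Cre10.g426800.t1.2 had opposite responses in the strains, with a difference of -4.60 log2 units. In crr1dCys it stood at 4.91 (TS1) and 5.20 (TS2) RPKM at 6 h and at 10.0 and 9.95 RPKM in light. In crr1:CRR1 it stood at 30.6 (TS1) and 6.00 (TS4) RPKM at 6 h and at 1.42 and 3.90 RPKM in light. The mutant crr1 had 2.17 RPKM at 6 h and 5.24 RPKM in light in TS1, in the direction of crr1dCys, and CC-124 had 90.6 and 1.66 RPKM, in the direction of crr1:CRR1. The response of crr1:CRR1 in TS4 was 0.52 log2 units, against 3.71 in TS1.

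Cre01.g029700.t1.1 differed by -4.27 log2 units. It had 81.5 and 122 RPKM at 6 h and 175 and 104 RPKM in light in crr1dCys, in TS1 and TS2. In crr1:CRR1 it had 302 and 56.1 RPKM at 6 h and 32.4 and 20.5 RPKM in light, in TS1 and TS4. CC-124 had 323 RPKM at 6 h and 18.8 RPKM in light. Both crr1dCys columns lay above all columns of the other strains in light, and between the columns of crr1:CRR1 at 6 h.

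Other members of the 20 depended on the crr1:CRR1 column. Cre16.g651050.t1.1 had the largest difference of all, -5.64 log2 units, with a response of -1.15 in crr1dCys TS1 against 4.50 in crr1:CRR1 TS1. Its responses were 0.91 in crr1dCys TS2 and 0.30 in crr1:CRR1 TS4, and CC-124 had 107 RPKM at 6 h and 0.206 RPKM in light. Cre10.g434650.t1.2 had 17.2 and 15.4 RPKM at 6 h in crr1dCys, and 95.8 (TS1) and 9.35 (TS4) RPKM in crr1:CRR1. Its difference of -3.41 log2 units in TS1 became 0.69 between TS2 and TS4. Cre07.g346900.t1.2 turned round as well, at -3.53 in TS1 and 3.54 between TS2 and TS4, with 549 and 281 RPKM at 6 h in crr1dCys and 537 and 11.2 RPKM in crr1:CRR1.

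The 11 models with a response of -1 or less in crr1:CRR1 had a still lower one in crr1dCys. Median responses were -4.85 log2 units in TS1 and -4.95 in TS2 for crr1dCys, -4.35 for crr1, -0.55 for CC-124, and -1.91 in TS1 and -4.14 in TS4 for crr1:CRR1. The strains differed in light and met at 6 h. In light 10 of the 11 were higher in crr1dCys by 1 log2 unit or more, 90.9%, against 1.79% of all models with such a response in crr1:CRR1 TS1. Their median difference was 2.63 log2 units in light, and -0.09 in level at 6 h. The light and 6 h columns of TS1 also chose these models through their responses, so both medians describe these models only. Of the 11, 8 belong to the 12 models whose level in light was also high in crr1.

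Cre02.g097800.t1.2 and Cre06.g309000.t1.1 were among them, at -3.54 and -3.26 log2 units. At 6 h Cre02.g097800.t1.2 had 4.21 and 6.28 RPKM in crr1dCys and 4.82 and 2.59 RPKM in crr1:CRR1, where its levels in light had been far apart. Cre06.g309000.t1.1 had 0.502 and 0.593 RPKM in crr1dCys at 6 h, and 0.0382 RPKM in TS1 and 0 in TS4 in crr1:CRR1. Between TS2 and TS4 the response differences were -0.99 and -1.09 log2 units.

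**Figure D4:**
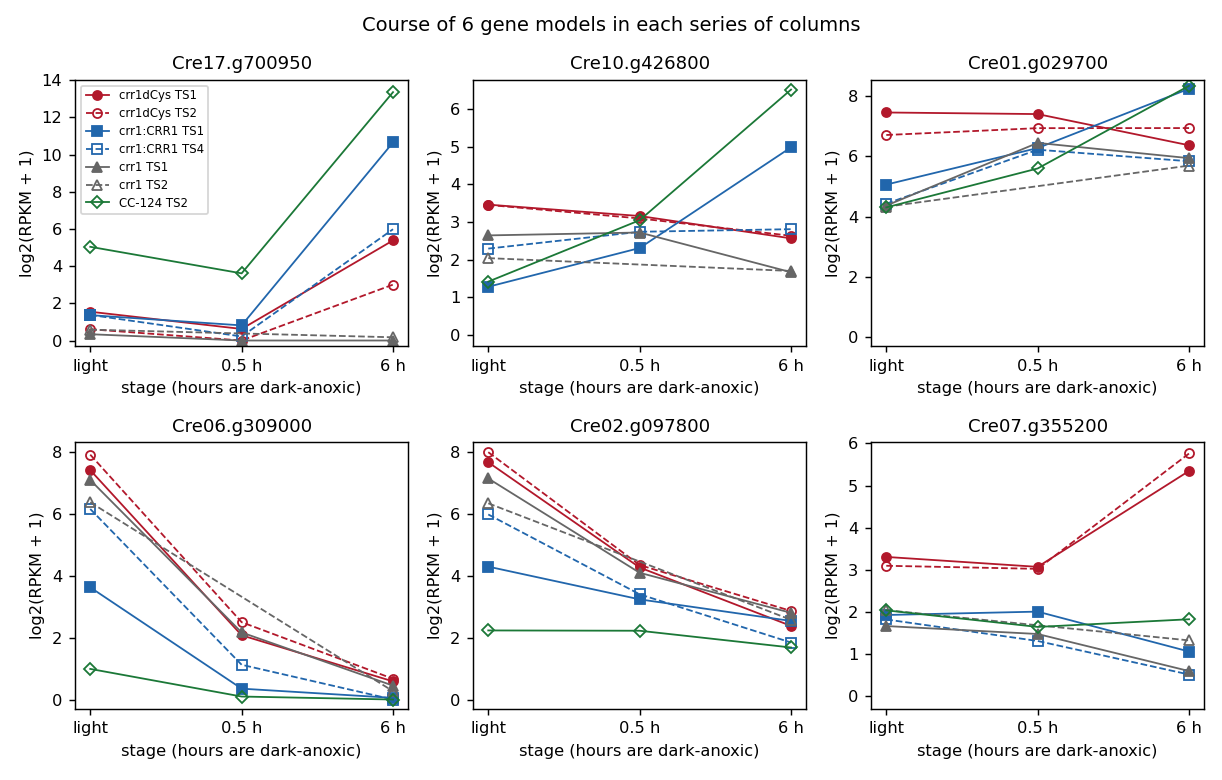
Level, as log2(RPKM + 1), of 6 gene models in light and after 0.5 h and 6 h in the dark without oxygen, with 1 line for each strain and series; crr1 TS2 has no 0.5 h column. The upper row shows models whose 6 h response was lower in crr1dCys TS1 while that of crr1:CRR1 TS1 was above 3, the lower row 2 models that were high in light in crr1dCys and crr1 and, at the right, Cre07.g355200, which was 39.7 and 53.3 RPKM at 6 h in crr1dCys.

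Among models with a higher 6 h response in crr1dCys and at least 50 reads, Cre07.g355200.t1.2 came second in size. It had 39.7 (TS1) and 53.3 (TS2) RPKM in crr1dCys at 6 h, against 1.08 (TS1) and 0.427 (TS4) RPKM in crr1:CRR1. In light it had 8.89 and 7.55 RPKM in crr1dCys and 2.80 and 2.53 RPKM in crr1:CRR1. The mutant crr1 had 0.511 RPKM and CC-124 2.55 RPKM at 6 h, so the 6 h level was high in crr1dCys alone. The difference in response was 2.91 log2 units in TS1 and 3.97 between TS2 and TS4.

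In Cre03.g184250.t1.1 and Cre29.g778700.t1.1 the 6 h level was below the light level in both strains, by less in crr1dCys. Cre03.g184250.t1.1 had 18.2 and 13.0 RPKM at 6 h in crr1dCys, against 4.75 and 0.225 RPKM in crr1:CRR1. Its levels in light were 36.8 and 59.8 RPKM in crr1dCys and 57.3 and 43.8 RPKM in crr1:CRR1. Cre29.g778700.t1.1 had 31.9 and 20.5 RPKM at 6 h in crr1dCys, against 8.76 and 0.10 RPKM in crr1:CRR1. These 2 were picked after their values were seen, for keeping their direction, with differences of 2.36 and 2.18 log2 units in TS1. Cre12.g546550.t1.1 had the largest difference among models with enough reads, 3.07 log2 units, but -2.69 between TS2 and TS4. Its 6 h level was 100.2 and 40.9 RPKM in crr1dCys and 5.65 (TS1) and 39.1 (TS4) RPKM in crr1:CRR1. The very largest difference, 5.36 log2 units in Cre03.g148550.t1.1, rests on 2 reads or fewer.

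**Figure D5:**
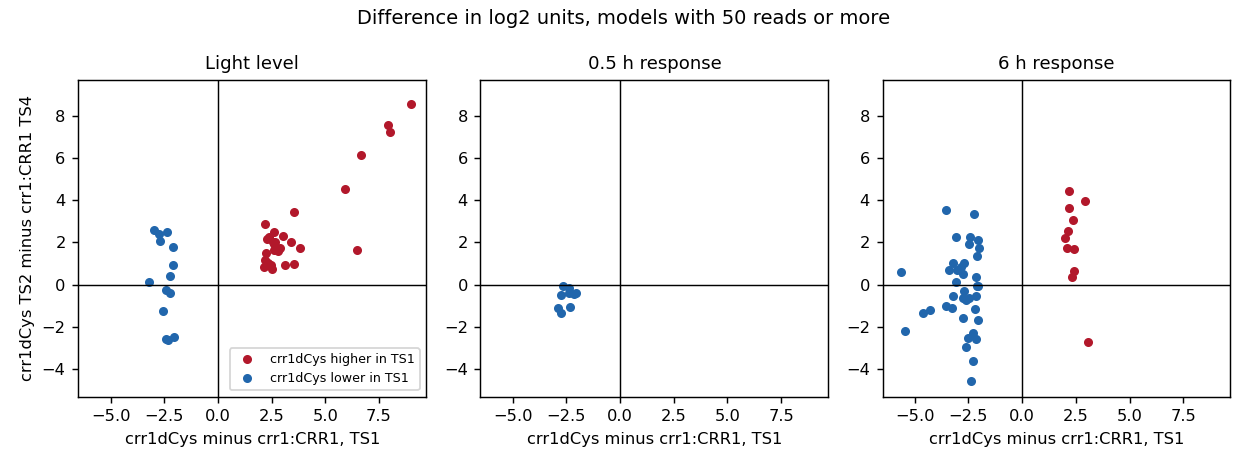
Difference of crr1dCys minus crr1:CRR1 in log2 units between the TS2 and TS4 columns (vertical axis) against that in TS1 (horizontal axis), for models past the size in TS1 with at least 50 reads, in light level and in the 0.5 h and 6 h responses. All 28 models higher in light lie above 0 on the vertical axis, while the 14 lower ones lie on both sides, with 8 above it, and of the 39 with a lower 6 h response 22 lie below it.

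In the other columns, 10 of the 11 models with a higher 6 h response and enough reads kept their sign, 90.9%, against 42.4% of all models counted. Between TS2 and TS4, 8 of the 11 differed by 1 log2 unit or more, 72.7%, against 16.4% of all models. The same 8 did so in all 3 other pairings of columns, against 1.66% of all models. Of the 39 with a lower response, 22 kept their sign between TS2 and TS4, 56.4%, against 57.5% of all models, a share near the background. A difference of 1 log2 unit or more was kept between TS2 and TS4 in 13, 33.3%, against 14.9% of all models, and in all 3 other pairings in 10, 25.6%, against 0.975%. Each pairing other than TS2 against TS4 uses a TS1 column that chose the models. With the TS2 columns of crr1dCys against the same TS1 columns of crr1:CRR1, all 39 were lower by 1 log2 unit or more, but these share the columns that chose them. The lower 6 h responses thus held in every pairing for some models and depended on the crr1:CRR1 column for others.

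Light levels and 6 h responses met in the same models. Of the 31 models higher in light in crr1dCys, 16 had a lower 6 h response, 51.6%, against 0.403% of all models counted at 6 h. These are 33.3% of the 48. Of the 24 lower in light, 8 had a higher 6 h response, 33.3%, against 0.218% of all models counted. These are 30.8% of the 26. The light level and the 6 h response both use the light columns, with opposite sign, so the lists are not independent. The 7 models that were high in crr1dCys alone were not among the 39 with a lower 6 h response. Just inside the limit in light lay Cre17.g729393.t1.1 at 2.04 log2 units and Cre01.g062700.t1.1 at -2.04, and just outside lay Cre04.g223100.t1.1 at 1.94 and Cre01.g064881.t1.1 at -1.96. Of these, Cre17.g729393.t1.1 had 24 reads at most in the comparison. It had 3.11 RPKM in crr1dCys TS1, against 0 in TS1 and 2.25 RPKM in TS4 in crr1:CRR1.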

How the data were processed

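Transcript levels were measured by Illumina RNA sequencing. The deposited table holds 17301 gene models in 20 columns. Bowtie is named per the submitters' processing notes, while build, annotation, counting and strand settings were not given in the sources used. Overlapping or near-identical models may share reads. The deposited values carry no unit in the header and were read as RPKM, since the steps between low values gave whole model lengths. Depth, lengths and reads were inferred from these steps. The shortest inferred length among models past the size was 2 bases, so the length used is not known to be that of the whole model. The length came out whole, within 0.1 base, for all 785 low models used, and for a median of 20% at trial depths. Columns were matched to samples by name, and the names read as crr1:CRR1 and crr1 by elimination. 0 columns were left without a sample.

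Values were used as log2(RPKM + 1) in Python 3.11.15 with pandas 2.3.3, numpy 2.4.6 and matplotlib 3.10.9. Each comparison had 1 column a side and no replicate, so no test was run. The size was 2 log2 units with a log2 level of at least 2 in a column of the comparison. The models named are the 10 largest in each direction of each comparison, with those under 50 inferred reads (32 of 60) given by count and by the largest of each kind. Others lie next to the limit of size or are said to have been picked after their values were seen. Members and lists were chosen with earlier results of these data known. The rule of size was run on simulated data as a check of the code, which does not measure the spread between the real columns. 22 lists of gene symbols were prepared, and 0 of their 313 symbols could be used, because the table and RefSeq hold no symbols for these models. 12666 models matched a locus tag, used for neighbours alone.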

Additional observations from a re-analysis of the deposited data

Results flagged for a closer look

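In 4 named models the responses of crr1dCys had the same sign in both series and those of crr1:CRR1 the opposite sign. Some of these responses were close to no change, and the differences were not tested. The 6 h response of Cre07.g355200.t1.2 was 2.04 and 2.67 log2 units in crr1dCys and -0.87 and -1.31 in crr1:CRR1, a difference of 2.91 in TS1. For Cre10.g426800.t1.2 it was -0.90 and -0.82 in crr1dCys and 3.71 and 0.52 in crr1:CRR1, a difference of -4.60. The 0.5 h response of Cre07.g321750.t1.1 was -0.26 and -0.05 in crr1dCys and 2.49 and 0.45 in crr1:CRR1, a difference of -2.75. The 0.5 h response of Cre13.g572250.t1.2 was -2.85 and -0.06 in crr1dCys and 1.2 and 0.05 in crr1:CRR1. Its difference in TS1 was -4.05, and it had 7 reads or fewer in any of the 6 columns.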

How the results depend on the processing

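Each difference rests on 1 column a side, so no call has a test. Of 72 values of the 6 counts under other settings, 40 were within 1.5 times the main count and 32 were not. A pseudocount of 0.1 gave 21 higher 0.5 h responses and 57 higher and 73 lower 6 h responses in crr1dCys. With a pseudocount of 5 there were 3 lower light levels, 1 higher and 4 lower 0.5 h responses, and 7 higher and 27 lower 6 h responses. A log2 level of at least 3 left 7 higher 0.5 h responses. A size of 1 log2 unit gave 131 higher and 107 lower light levels, 42 and 98 responses at 0.5 h, and 317 and 474 at 6 h. Quantile normalization gave 40 higher 6 h responses. The TS2 columns of crr1dCys left 11 lower light levels, and the TS4 columns of crr1:CRR1 gave 8 lower 0.5 h responses and 711 higher and 275 lower 6 h responses. The mean of all columns gave 7 lower light levels, 4 higher and 4 lower 0.5 h responses and 168 higher 6 h responses. The next settings were chosen after seeing the data. At least 50 reads left 14 lower light levels, 0 higher and 9 lower 0.5 h responses and 11 higher 6 h responses. TS2 of crr1dCys against TS4 of crr1:CRR1 gave 59 higher light levels, 10 lower 0.5 h responses and 733 higher and 276 lower 6 h responses. The cause of these shifts was not tested, except that a smaller size admits more models by construction and a minimum of reads fewer. A smaller pseudocount can also drop models. With 0.1, 15 of the 16 lower 0.5 h responses and 46 of the 48 lower 6 h responses were kept.

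Named differences changed sign where columns were exchanged, and under no pseudocount or scaling tried. With TS2 of crr1dCys, Cre12.g549950.t1.1 had a light difference of 0.55 log2 units. With TS4 of crr1:CRR1, 6 h differences became 2.31 in Cre07.g346900.t1.2, 0.12 in Cre10.g434650.t1.2 and -1.23 in Cre12.g546550.t1.1. With both exchanged, light differences became 0.14 in Cre12.g549950.t1.1, 2.58 in Cre12.g540300.t1.1, 2.42 in Cre14.g619050.t1.1, 2.06 in Cre07.g355950.t1.1 and 0.85 in Cre17.g708650.t1.1. The 6 h differences became 0.61 in Cre16.g651050.t1.1, 3.54 in Cre07.g346900.t1.2, 0.69 in Cre10.g434650.t1.2, -2.69 in Cre12.g546550.t1.1 and -2.20 in Cre03.g148550.t1.1. No paired analysis was possible because the labels give each strain and stage 1 sample and no replicate number. Depth limits the models of short inferred length most, where 1 read decides a value.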
